A study of Mus musculus with 16 samples.

Results

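The frontonasal prominence (FNP) of *Srf* mutant embryos was compared with that of littermate controls at E11.5, using bulk RNA sequencing of whole prominences. The comparison takes every FNP library of the series, 8 of the 16 libraries, 4 from mutants and 4 from controls. The other 8 libraries are from the mandibles of the same 8 embryos and serve here only to show where the FNP differs. The mutants (embryos 3 to 6) carried the genotype *Srf* flox/flox; *Wnt1-Cre*, in which Cre acts in the neural crest lineage and cells of other origin in the prominence keep *Srf*. The controls were of mixed genotype. Embryos 1 and 7 were *Srf* flox/+; *Wnt1-Cre*, with the same Cre and a single floxed allele, embryo 2 was *Srf* flox/flox and embryo 8 was *Srf* flox/+, both without Cre. The first litter gave embryos 1 to 5, and the second litter gave the mutant embryo 6 and the control embryos 7 and 8. Each FNP library is a separate embryo. In what follows, values by embryo are given for mutants in the order 3, 4, 5 and 6 and for controls in the order 1, 2, 7 and 8.

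SRF is a transcription factor that binds a short DNA element called the CArG box. It works with either of 2 families of cofactors. The myocardin-related factors MRTF-A and MRTF-B are held back by monomeric actin and, with SRF, drive genes of the actin cytoskeleton. The ternary complex factors ELK1, ELK3 and ELK4 answer to ERK signalling and drive immediate early genes. The FNP gives rise to the forehead and nose. At this stage it is mostly neural crest mesenchyme under a covering of ectoderm that includes the olfactory placodes.

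The deposited gene values of an FNP library summed to between 10226942 and 11185674, after a scaling by the authors that hides the number of reads, so errors are given as the spread between embryos. Levels are given as TPM, the abundance of transcripts scaled by their length and by library, and 13878 to 14168 genes reached 1 TPM in a library. The markers fitted the label: *Twist1* stood at 491 to 644 TPM in mutants and 464 to 725 TPM in controls, and *Alx1*, a transcription factor gene of the frontonasal mesenchyme, at 303 to 367 and 300.2 to 333 TPM. The prominence also held ectoderm (*Epcam* 81.5 to 93.1 TPM in mutants and 75.7 to 90.8 TPM in controls), blood, endothelium and some neurons. *Myod1* of skeletal muscle and *Myh11* of smooth muscle reached at most 0.248 and 0.153 TPM in any FNP library, but other markers of these lists were higher. *Des* of skeletal muscle was at 1.85 to 5.05 TPM in mutants and 1.39 to 4.99 TPM in controls. *Tagln* of smooth muscle was at 5.16 to 14.1 TPM in mutants and 5.81 to 9.09 TPM in controls. On the first 3 principal components, which held 30.1, 16.7 and 12.9% of the variance, no separation of mutants from controls passed an exact permutation test with Benjamini-Hochberg adjustment over the 3 components (smallest adjusted p = 0.171, n = 4 and 4). The second component came nearest, with mean scores of 11.7 ± 13.3 in mutants and -11.7 ± 10.4 in controls (SD, n = 4 and 4, exact p = 0.0571).

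*Srf* itself was at 11.8, 14.7, 13.2 and 13.1 TPM in mutants, against 48.9, 75.2, 34.7 and 56.5 TPM in controls. The mutants lay close together and far below the lowest control. The mutant mean was 24.5% of the control mean, and an exact permutation test, two-sided, gave p = 0.0286, its lower limit with 4 libraries a group. Set against the controls with *Wnt1-Cre* alone the share was 31.6%, and against those without Cre 20.1%, where 4 against 2 embryos cannot give an exact p below 0.133. Whole prominences were sequenced, so that fewer cells of a type and less RNA per cell cannot be told apart, here or in the results that follow.

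Of 14197 genes tested, 15 fell in the mutant FNP and 0 rose, or 0.106% and 0% of the genes. The test was limma on log2(value + 0.5) with a term for litter, and the threshold an adjusted p (Benjamini-Hochberg) of 0.05. At an unadjusted p under 0.05 the split was 1244 genes lower (8.76%) and 699 higher (4.92%). That split depends on how libraries are scaled. With libraries scaled to equal totals it was 708 lower (4.99%) and 1332 higher (9.38%), the median of all genes moved from -0.005 to 0.04 on the log2 scale, and 12 genes fell (0.0845%) and 0 rose, with *Flna*, *Fhl3* and *Gm8399* no longer called (limma adjusted p = 0.0609 for each). In each of the 15 every mutant library lay below every control library in TPM (1.8% of all genes tested), which the choice of genes by a small p nearly requires. Without control embryo 1 the number of genes that fell was 9.

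**Figure D1:**
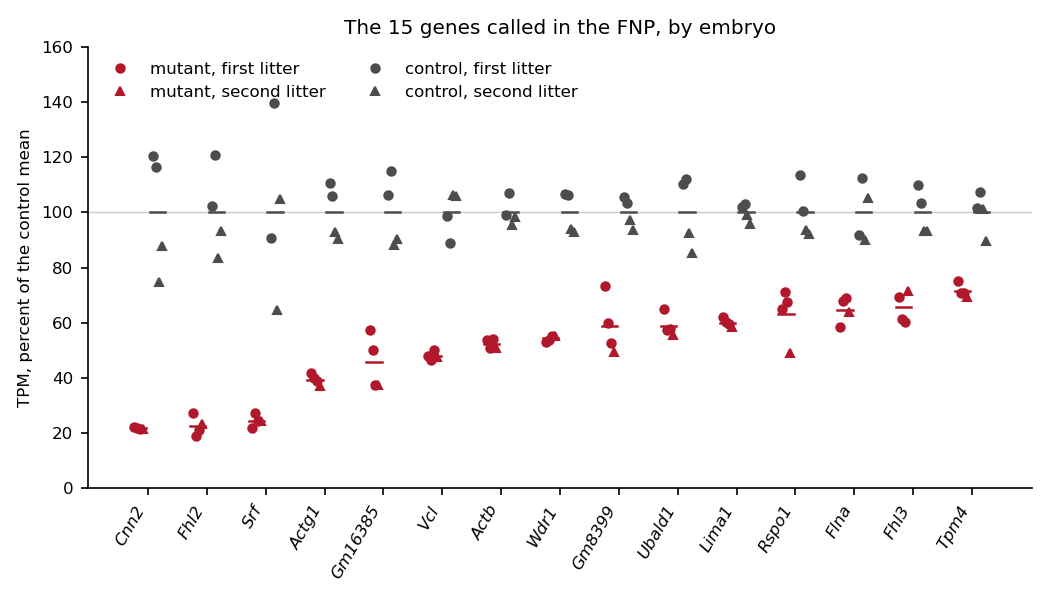
TPM of the 15 genes that fell, as a percentage of the control mean of each gene. Points are embryos (red mutants, grey controls, circles first litter, triangles second litter) and bars are group means. In *Cnn2* the 4 mutants lie within a narrow band near 21.7% of the control mean, whereas in *Tpm4* they lie near 71.5%.

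The largest falls were in *Cnn2*, which encodes the actin-binding protein calponin 2, and in *Fhl2*, a LIM-domain gene. *Cnn2* was at 36.4, 35.6, 35.1 and 35 TPM in mutants, against 197, 191, 123 and 144 TPM in controls (log2 fold change -2.28, SE 0.1, limma adjusted p = 1.02e-05). The spread of the mutants was far smaller than that of the controls, in which the first litter stood above the second. *Fhl2* was at 2.41, 1.66, 1.88 and 2.06 TPM in mutants and 9.02, 10.7, 7.38 and 8.23 TPM in controls (-2.18, SE 0.174, limma adjusted p = 0.000675), but against the controls with *Wnt1-Cre* alone its adjusted p in limma was 0.0614. The cytoplasmic actin genes *Actg1* and *Actb* fell to 39.4 and 52.4% of their control means. *Vcl*, the vinculin gene, which ties actin filaments to adhesion sites, was at 22.1, 21.5, 23.1 and 22 TPM in mutants and 45.6, 41, 49 and 48.8 TPM in controls, or 48.1% of the control mean.

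*Lima1*, whose product stabilises actin filaments, was at 70.3, 68.2, 67.6 and 66.5 TPM in mutants, against 116, 117, 112 and 109 TPM in controls (log2 fold change -0.75, SE 0.0447, limma adjusted p = 6.43e-05). *Wdr1*, which helps cofilin to take filaments apart, was at 73.7, 74.9, 76.9 and 76.5 TPM in mutants, against 148, 148, 131 and 129 TPM in controls (-0.89, SE 0.0633, limma adjusted p = 0.000267). In both genes the mutants lay much closer to each other than to the lowest control. *Ubald1* was at 20.3, 17.9, 18 and 17.4 TPM in mutants and 34.5, 35, 28.9 and 26.6 TPM in controls (-0.84, SE 0.0701, limma adjusted p = 0.000879). These genes, *Actg1*, *Cnn2*, *Actb*, *Vcl*, *Fhl2* and *Srf* passed the threshold when any single library was left out.

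Smaller falls came from abundant or less certain genes. *Tpm4*, a tropomyosin, was at 361, 340.3, 339 and 333 TPM in mutants and 488, 516, 487 and 431 TPM in controls (log2 fold change -0.52, SE 0.055, limma adjusted p = 0.006), with an adjusted p of 0.053 without control embryo 1, 0.0587 without control embryo 2 and 0.0934 against the controls without Cre alone. *Flna*, which encodes the filament cross-linker filamin A, was at 188, 219, 222 and 207 TPM in mutants and 297, 363, 291 and 340.3 TPM in controls (-0.64, SE 0.0871, limma adjusted p = 0.0362). Its adjusted p in limma was 0.0532, 0.152 and 0.0686 without control embryo 1, 2 or 8, and 0.14, 0.0872 and 0.116 without mutant embryo 4, 5 or 6. *Fhl3*, a second LIM-domain gene, was at 30.4, 26.9, 26.4 and 31.4 TPM in mutants and 48.2, 45.3, 40.8 and 40.9 TPM in controls (-0.64, SE 0.0896, limma adjusted p = 0.0448). It missed the threshold without any of the libraries but mutant embryo 6, with an adjusted p in limma from 0.0517 without mutant embryo 3 to 0.294 without control embryo 2. Neither *Flna* nor *Fhl3* passed against the controls with *Wnt1-Cre* alone (adjusted p in limma 0.238 and 0.405). All of these genes kept a negative log2 fold change in each of the 23 settings tried.

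The processed pseudogenes *Gm16385* and *Gm8399* stand apart from the rest because their reads may belong to *Actg1*. Of the 31-base words in their annotated transcripts, 44.7% and 76.0% also occur in *Actg1* transcripts, so how the authors' quantification divided reads between these genes is uncertain. *Gm16385* was at 10.2, 8.93, 6.62 and 6.65 TPM in mutants and 18.9, 20.4, 15.7 and 16 TPM in controls, and *Gm8399* at 11.3, 9.23, 8.13 and 7.63 TPM in mutants and 16.3, 16, 15 and 14.4 TPM in controls. Both calls were lost when single libraries were left out. For *Gm16385* the adjusted p in limma was 0.0615, 0.0994 and 0.079 without control embryo 1, control embryo 2 or mutant embryo 6, and *Gm8399* passed only without mutant embryo 3 (highest adjusted p in limma 0.282, without control embryo 2).

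Of the 15 genes, *Rspo1* alone had a positive log2 fold change in the mandible. It encodes a secreted R-spondin that strengthens Wnt signalling through LGR receptors. *Rspo1* was at 13.9, 15.2, 14.5 and 10.4 TPM in mutant FNPs, against 24.2, 21.4, 20 and 19.7 TPM in control FNPs, with no overlap (log2 fold change -0.76, SE 0.0929, limma adjusted p = 0.0167). In the mandible it was at 10.2, 4.09, 5.18 and 10.3 TPM in mutants and 5.05, 3.61, 9.96 and 7.94 TPM in controls (0.38, SE 0.272, limma adjusted p = 0.749). The difference between the tissues had an unadjusted p of 0.0636 in limma, or 0.00233 with embryo as a block, and neither passed adjustment over all genes. The call in the FNP was lost without control embryo 1 or 8 (adjusted p in limma 0.146 and 0.0533) and without mutant embryo 5 or 6 (0.0582 and 0.113), and also without a term for litter (0.307). Of the 36 genes of the Wnt list, *Rspo1* alone fell (0.106% of all genes tested fell). At an unadjusted p under 0.05, 1 was lower and 2 higher (8.76% and 4.92% of all genes tested). The median of the list was 0.15, but 0.02 without a term for litter and -0.10 in the second litter alone. *Lgr5*, a receptor of R-spondins, had a log2 fold change of 0.25, and *Znrf3*, a Wnt feedback gene, 0.30 (unadjusted p = 0.00791 and 0.0238 in limma).

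To see whether the genes that fell share the element that SRF binds, the CArG box was searched by name in promoters taken from RefSeq (build GRCm38.p6), each covering 250 bases before to 50 bases after a transcript start. Of the 15 genes, 12 had a promoter in the table, and 6 of these held a CArG box (50%). Among the 6 is *Srf*, the deleted gene itself. The box stood in 1.81% of 27025 genes with a promoter, and in 1.62% of the 10609 genes tested that have one. It was found in none of the 10 promoters matched among the 12 genes that came next on the lower side, and in none of the 7 matched among the 12 higher genes, but in 2 of 22 matched promoters of the immediate early genes (9.09%, *Egr2* and *Zfp36*), a list in which no gene was called. These matches describe letters in a window and not binding. No promoter was matched for *Actb*, *Gm16385* and *Gm8399* of the called genes, or for *Fosl1*, *Egr1*, *Egr3*, *Ier2* and *Myc* of the immediate early genes. Those genes were not searched, and neither was any sequence outside the window, so the shares are no measure of all CArG boxes near a gene. The 30-base stretches around the element are shown for the 6 genes, with the CArG box in capitals, 5′ to 3′ on the strand of the gene. All lie upstream of the transcript start. The pattern is its own reverse complement, so that a search of one strand covers both.
*Actg1* (chr11:120348566-120348595, minus strand): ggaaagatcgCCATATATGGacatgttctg
*Cnn2* (chr10:79988534-79988563, plus strand): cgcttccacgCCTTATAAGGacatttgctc
*Vcl* (chr14:20929161-20929190, plus strand): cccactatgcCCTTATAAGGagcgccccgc
*Lima1* (chr15:99820177-99820206, minus strand): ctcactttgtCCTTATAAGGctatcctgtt
*Fhl2* (chr1:43163973-43164002, minus strand): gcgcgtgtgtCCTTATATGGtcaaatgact
*Srf* (chr17:46556225-46556254, minus strand): ctggggctcgCCATATAAGGagcggcctcg

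The CArG box of *Actg1* begins 90 bases before the start, those of *Cnn2*, *Lima1* and *Fhl2* 56, 47 and 31 bases before it, and that of *Vcl* 227 bases before it. *Fhl2* has a CArG box in a second promoter as well, and *Srf* has one 82 and another 62 bases before its start, of which the farther is shown. *Cnn2*, *Vcl* and *Lima1* have the same 10 letters in the box. Of 33 matched promoters of the list of MRTF-SRF cytoskeletal targets, which shares members with the genes that fell, 7 held the box (21.2%).

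The wider list of MRTF-SRF cytoskeletal targets had 38 members tested. Of these 10 fell and 0 rose (the list was written with the leading genes of these data known), against 0.106% and 0% of all genes tested. At an unadjusted p under 0.05, 22 were lower and 0 higher (8.76% and 4.92% of all genes tested). The median log2 fold change was -0.30 (-0.005 over all genes tested). *Pdlim7*, a PDZ-LIM gene, was at 65.9, 78.2, 75.8 and 84 TPM in mutants and 114, 135, 96.6 and 105 TPM in controls, with no overlap, but missed the threshold (log2 fold change -0.61, limma adjusted p = 0.124). *Myl9*, a regulatory light chain of myosin II, was at 19.4, 12.6, 14.6 and 22.6 TPM in mutants, below every control at 35.6, 61.4, 23.5 and 59.4 TPM. Its controls varied widely, and its log2 fold change of -1.28 had an SE of 0.332 (limma adjusted p = 0.198). *Myl9* is also a smooth muscle gene. Of the other smooth muscle genes of the list, *Acta2* was at 4.29, 1.42, 0.493 and 2.47 TPM in mutants and 1.08, 1.05, 0.494 and 1.99 TPM in controls, and *Tagln* at 14.1, 5.16, 5.93 and 8.22 TPM in mutants and 5.81, 6.47, 6.89 and 9.09 TPM in controls. Both overlapped between the groups.

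Other lists of the actin machinery, which share members with the targets, were counted in the same way. Of all genes tested 0.106% fell, and 8.76% were lower and 4.92% higher at an unadjusted p under 0.05. Of 27 genes of filament turnover and capping, *Wdr1* fell and 7 had an unadjusted p under 0.05 on the lower side. They include *Cfl1*, the cofilin gene, at 976, 905, 997 and 874 TPM in mutants and 1183, 1288, 1107 and 1037 TPM in controls (log2 fold change -0.35, limma adjusted p = 0.0882). *Dstn*, a cofilin relative, had a log2 fold change of -0.29 (limma adjusted p = 0.179). In the Arp2/3 complex, which branches filaments, 1 of 9 genes had an unadjusted p under 0.05 (median -0.07), and among 22 formins and nucleation promoters 0 were lower and 1 higher at that level (median 0.06). Of 29 focal adhesion genes *Vcl* fell and 5 were lower at that level, *Zyx* with a log2 fold change of -0.28 and *Tgfb1i1* with -0.74. *Itgav*, an integrin subunit of the same list, lay above every control in every mutant, though by a hair between mutant embryo 3 and control embryo 7, at 42.6, 43.7, 46.5 and 46.9 TPM in mutants and 34.7, 33.5, 42.6 and 39.4 TPM in controls (log2 fold change 0.29, limma adjusted p = 0.179). Of 15 genes of nonmuscle myosin II and tropomyosin *Tpm4* fell, and 6 were lower and 1 higher at that level (median -0.09), with log2 fold changes of -0.32 for *Myl12a* and -0.55 for *Tpm2*. Among 13 tubulins, which are microtubule genes, 7 were lower and 0 higher at an unadjusted p under 0.05 (median -0.20). They were led by *Tubb6* (log2 fold change -0.48, limma adjusted p = 0.111). Without a term for litter 1 tubulin was lower and 0 higher (median -0.18), and the median in the second litter alone was -0.15. In the mandible 7 of 13 tubulins were lower and 0 higher (median -0.17), against 3.35% and 3.85% of all genes tested there.

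Immediate early genes, the other class of SRF targets, showed no common direction. Of 21 tested 0 passed the threshold, and the median was 0.09. At an unadjusted p under 0.05, 2 were lower and 2 higher (8.76% and 4.92% of all genes tested). *Junb* was at 10.5, 11, 8.77 and 5.87 TPM in mutants and 8.7, 7.86, 4.47 and 3.37 TPM in controls (log2 fold change 0.37), and *Ier2* at 81.7, 89.2, 97.9 and 74.5 TPM in mutants and 131, 129, 74.5 and 63.3 TPM in controls (-0.33). In both genes every second-litter embryo lay below every first-litter embryo. Of the cofactors, *Mrtfb* was at 13, 13.7, 15.5 and 15.3 TPM in mutants, each below every control at 17.7, 16, 17.6 and 16.7 TPM, with a log2 fold change of -0.25 that missed the threshold (limma adjusted p = 0.222). *Mrtfa* had -0.10 and *Elk3* 0.15 (limma adjusted p = 0.557 and 0.257). Feedback genes and ligands of the FGF pathway gave 0 lower and 0 higher of 19 at an unadjusted p under 0.05, and the 14 Hedgehog genes likewise gave 0 and 0.

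**Figure D2:**
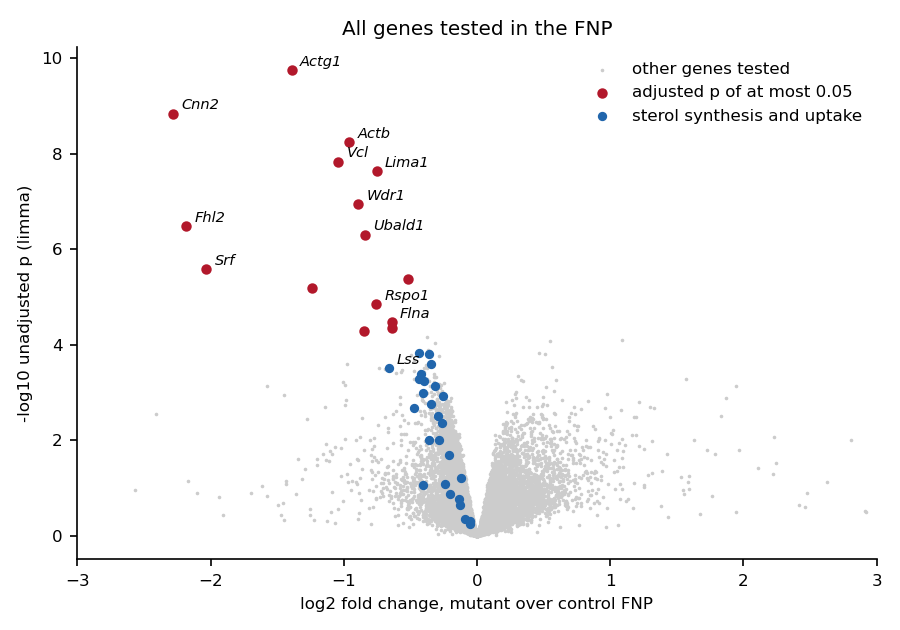
Log2 fold change of each gene tested (mutant over control FNP, x axis) against -log10 of the unadjusted p from limma (y axis). Red points are the 15 genes with an adjusted p of at most 0.05, and blue points are the 26 genes of sterol synthesis and uptake, all to the left of 0. The plot leaves out 5 genes beyond 3 on the log2 scale.

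Below the called genes, the genes of sterol synthesis and uptake had negative log2 fold changes throughout. The cell makes cholesterol from acetyl-CoA by way of mevalonate, squalene and lanosterol, and also takes it up from outside. None of its 26 genes passed the threshold, yet 26 had a negative log2 fold change, with a median of -0.30 (-0.005 over all genes tested). At an unadjusted p under 0.05, 17 were lower and 0 higher (8.76% and 4.92% of all genes tested). In 6 of the 26 every mutant lay below every control (1.8% of all genes tested). Leaving out each library in turn gave 15 to 20 lower and 0 higher, with medians of -0.35 to -0.27. The first and the second litter alone gave 14 lower each, with medians of -0.27 and -0.36. With libraries scaled to equal totals 16 were lower and 0 higher (median -0.25). Without a term for litter 11 were lower and 0 higher. The genes of this pathway are regulated together, so their values are not independent of each other.

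The early steps were represented by *Hmgcs1*, which makes HMG-CoA, at 237, 202, 209 and 185 TPM in mutants and 266, 269, 247 and 235 TPM in controls (log2 fold change -0.35, SE 0.0611, limma adjusted p = 0.116). Mutant embryo 3 overlapped with the lowest control. *Fdps*, which makes farnesyl diphosphate, was at 174, 144, 174 and 146 TPM in mutants and 207, 232, 207 and 181 TPM in controls, with no overlap (-0.43, SE 0.0839, limma adjusted p = 0.135). Further down, *Nsdhl* was at 27.4, 23.3, 23.7 and 23.9 TPM in mutants and 34.1, 33.8, 31.6 and 31.1 TPM in controls (-0.44, SE 0.072, limma adjusted p = 0.0882). The groups did not overlap in *Nsdhl*, and the controls of the second litter lay below those of the first.

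The largest log2 fold change of the list was that of *Lss*, lanosterol synthase, at 23.4, 21.8, 22.4 and 19.5 TPM in mutants and 46.2, 32.8, 26.5 and 23.9 TPM in controls (-0.66, SE 0.12, limma adjusted p = 0.116). The mutants were alike and the controls ranged widely, with the lowest control just above the highest mutant. *Insig1*, which holds back the pathway when sterols are plentiful, was at 59.1, 48.5, 46.9 and 28.2 TPM in mutants and 61.2, 64.3, 51.4 and 46.9 TPM in controls, with overlap (-0.47, limma adjusted p = 0.187). *Srebf2*, the transcription factor gene of the pathway, had -0.12 (limma adjusted p = 0.393). Among 17 genes of fatty acid synthesis and handling 6 were lower and 0 higher at an unadjusted p under 0.05 (8.76% and 4.92% of all genes tested). Their median was -0.13. *Fabp5*, a fatty acid binding protein, was at 230.4, 238, 248 and 189.9 TPM in mutants and 299.7, 321, 253 and 219 TPM in controls, with overlap (-0.37, limma adjusted p = 0.0882), and *Scd1*, a desaturase, was at 28.3, 22.2, 25.7 and 23.8 TPM in mutants, below every control at 33, 32, 36.3 and 31.5 TPM (-0.42, limma adjusted p = 0.191).

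In the mandible, 9 of the 26 sterol genes were lower and 0 higher at an unadjusted p under 0.05 (median -0.16), against 3.35% and 3.85% of all genes tested there. The log2 fold change was lower in the FNP than in the mandible for 21 of 26. For *Lss* it was 0.10 in the mandible (SE 0.155) and for *Mvd*, which closes the mevalonate steps, 0.03 (SE 0.0791), against -0.40 in the FNP. The difference between the tissues had an unadjusted p of 0.0309 for *Lss* and 0.00292 for *Mvd* in limma, 0.00066 and 0.000631 with embryo as a block, and none was called over all genes.

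**Figure D3:**
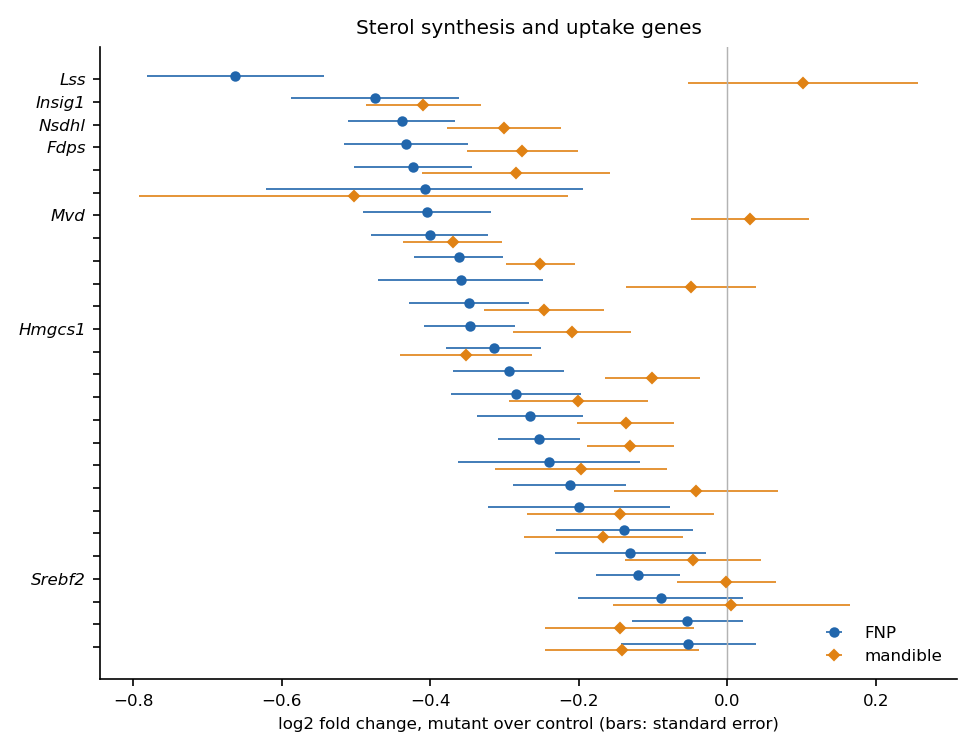
Log2 fold change of the 26 genes of sterol synthesis and uptake (mutant over control, x axis) in the FNP (blue circles) and in the mandible (orange diamonds), with bars of 1 standard error and names for the genes given in the text. All 26 FNP values lie left of 0, and *Lss* and *Mvd* are near or right of 0 in the mandible.

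Genes of protein synthesis and respiration also leaned low in the FNP, in step with a trend along transcript length. Of 30 ribosomal protein genes 23 were lower and 0 higher at an unadjusted p under 0.05 (median -0.18), and of 26 genes of oxidative phosphorylation 14 were lower and 0 higher (median -0.15), with 0 called in either list. The shares over all genes tested were 8.76% lower and 4.92% higher. *Rps14* was at 2551, 2442, 2780.1 and 2138 TPM in mutants and 3177, 3425, 2786 and 2344 TPM in controls (log2 fold change -0.31, limma adjusted p = 0.187), and *Ndufb8*, a subunit of complex I, at 237, 224, 241 and 198 TPM in mutants and 293, 322, 245 and 237 TPM in controls (-0.32, limma adjusted p = 0.138). Groups overlapped in every gene of both lists. Without control embryo 2 the counts were 14 ribosomal and 5 respiratory genes. Of the ribosomal genes 1 was lower in the second litter alone, and 0 without a term for litter. In the mandible both lists gave 0 lower and 0 higher, with medians of -0.01 and -0.03.

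Length moved with these counts. Over the 13237 genes tested that have an annotated protein-coding transcript (93.2%), the 3311 with the shortest transcripts had a median log2 fold change of -0.08 in the FNP, and the 3309 with the longest 0.04. At an unadjusted p under 0.05, 634 of the shortest were lower and 97 higher, and 97 of the longest were lower and 270 higher. In the mandible the medians of such groups were -0.01 and 0.00. The same contrast within a library, the median deviation of the longest minus that of the shortest, was -0.02, 0.07, -0.01 and 0.14 in mutants, against -0.06, -0.18, 0.00 and 0.07 in controls, so that control embryo 2 and mutant embryo 6 lay at the ends. Median transcript lengths were 965 bases for the ribosomal and 1428 bases for the respiratory genes, against 3246 bases for the sterol genes. With the trend along length removed from each library, a setting chosen after seeing the data, 9 ribosomal genes were lower and 1 higher (median -0.06), against 6.72% and 5.11% of all genes, and 4 respiratory genes lower and 0 higher (median -0.04). In the same setting 18 sterol genes were lower and 0 higher (median -0.30), 19 of the cytoskeletal targets were lower and 0 higher, and 19 genes fell (0.144%) and 1 rose (0.00755%), the last being *Gm2000*. The 19 include 13 of the 15 called genes, and *Gm16385* and *Gm8399*, which have no protein-coding length, could not be tested.

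**Figure D4:**
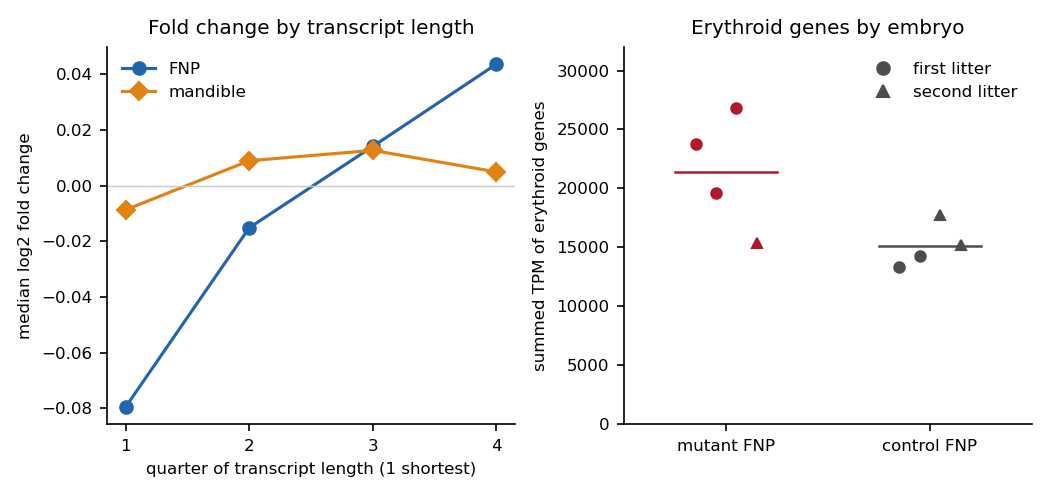
Left, median log2 fold change (mutant over control) in groups of genes from short to long transcripts, in the FNP (blue) and the mandible (orange), with FNP medians of -0.08 for the shortest and 0.04 for the longest. Right, summed TPM of 16 erythroid genes in each FNP library (circles first litter, triangles second litter, bars group means), in which the 3 first-litter mutants lie above every control.

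Cell cycle genes leaned the same way by small amounts. Of 25 mitosis genes 12 were lower and 0 higher at an unadjusted p under 0.05 (median -0.11), and of 25 S phase genes 4 were lower and 0 higher (median -0.08), with 0 called. The shares over all genes tested were 8.76% lower and 4.92% higher. In the mandible, unlike the ribosomal and respiratory lists, mitosis gave 7 lower and 0 higher (median -0.10). There S phase gave 3 lower and 0 higher (median -0.05), against 3.35% and 3.85% of all genes. *Cdc20*, an activator of the anaphase-promoting complex, was at 188, 186, 198 and 156 TPM in mutants and 222, 234, 186 and 179 TPM in controls (log2 fold change -0.25, limma adjusted p = 0.143). The mitosis count was 5 without mutant embryo 6 and 5 with libraries scaled to equal totals, and without a term for litter both lists gave 0 lower and 0 higher.

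No gene rose past the threshold in the FNP (699 at an unadjusted p under 0.05 in limma), and those nearest to it included copies of abundant genes. Among genes with a mean of at least 5 TPM whose mutant libraries all lay above the controls (1.62% of the genes tested, whatever their level), the 12 with the smallest p were *Gm2000*, *Rasa2*, *Ahcyl2*, *Gm10182*, *Igfbp3*, *Gm4294*, *Tbl1xr1*, *Rps15a-ps7*, *Mecom*, *Cul9*, *Itgav* and *Sparcl1*. *Gm2000* was at 138 to 173 TPM in mutants and 98.7 to 111 TPM in controls (log2 fold change 0.55, limma adjusted p = 0.0642). Of its 31-base words 90.4% occur in *Rpl35*. The same share was 100% for *Gm10182* in *Hmgn2*, 99.0% for *Gm4294* in *Rpl15* and 72.9% for *Rps15a-ps7* in *Rps15a*, so the values of these genes are uncertain.

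Among the others, *Rasa2*, which encodes a RAS GTPase-activating protein, was at 14, 17.2, 16.9 and 19.5 TPM in mutants and 11.3, 12.3, 13.6 and 13.6 TPM in controls (log2 fold change 0.46, SE 0.0758, limma adjusted p = 0.0882), and passed the threshold without mutant embryo 3 (adjusted p in limma 0.0138). *Igfbp3*, a binding protein of insulin-like growth factors, was at 64.6, 62.7, 58.4 and 55.4 TPM in mutants and 55, 48.3, 46 and 45.5 TPM in controls (0.31, limma adjusted p = 0.133). *Mecom*, a zinc finger transcription factor gene, was at 26.1, 26.5, 30.2 and 26.4 TPM in mutants and 23.1, 21.4, 20.6 and 21.9 TPM in controls (0.30, limma adjusted p = 0.177). *Cul9*, a cullin gene, was at 8.29, 6.34, 9.83 and 11.9 TPM in mutants and 5.95, 3.39, 5.55 and 4.13 TPM in controls (0.98, SE 0.211, limma adjusted p = 0.179), and its value in the mandible was 0.97 (unadjusted p = 0.000335 in limma). *Cul9* lies next to the deleted gene on the minus strand of chromosome 17 (chr17:46500572-46546388, GRCm38), 1940 bases downstream of the end of *Srf*. Whether reads that run past the end of the deleted gene add to the level of *Cul9* was not tested and cannot be seen from gene values.

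The 12 genes on the lower side after the called ones, by the same rule, included *Csrp1*, *Eef1b2*, *Cfl1*, *Nsdhl*, *Gm14434*, *Mrpl47*, *Tgfb1i1*, *Lss*, *Dab1*, *Yipf6* and *Plekho1*. Of the 31-base words of *Gm14434*, 98.5% occur in *Gm2026*, so its values are uncertain. *Csrp1*, a LIM-domain gene, was at 70.1, 70.4, 69.7 and 61.2 TPM in mutants and 85.9, 91.9, 83.1 and 73.8 TPM in controls (log2 fold change -0.37, limma adjusted p = 0.0624). *Eef1b2*, a translation elongation factor, was at 1129, 1152, 1178 and 1008 TPM in mutants and 1429, 1492, 1326 and 1184 TPM in controls (-0.32, limma adjusted p = 0.0701). *Dab1*, an adaptor in reelin signalling, was at 4.71, 4.65, 4.57 and 4.69 TPM in mutants and 8.43, 7.32, 6.86 and 7.34 TPM in controls (-0.69, limma adjusted p = 0.119), with mutants that hardly varied.

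Of 27 transcription factors that pattern the frontonasal region 0 passed the threshold. At an unadjusted p under 0.05, 1 was lower and 6 higher (8.76% and 4.92% of all genes tested), and the median was 0.06. The first litter alone gave 3 lower and 8 higher (median 0.10), and the median in the second litter alone was 0.04. Without a term for litter 0 were lower and 3 higher. In the mandible the list gave 0 lower and 0 higher (3.35% and 3.85% of all genes tested there). *Alx1*, a homeobox gene of the mid-face, had a log2 fold change of 0.01. *Pax9* was at 51.3, 41.5, 37.7 and 54.4 TPM in mutants and 28, 26.8, 52.4 and 44.4 TPM in controls (0.46, limma adjusted p = 0.202), where the first-litter mutants exceeded their littermates. *Barx1* was at 27.9, 14.3, 16.5 and 24.5 TPM in mutants and 13.7, 9.87, 8.49 and 18.8 TPM in controls (0.83, limma adjusted p = 0.25), and *Nr2f1* at 79.3, 78.6, 86.4 and 58.3 TPM in mutants and 109, 115, 58.6 and 96.8 TPM in controls (-0.44, limma adjusted p = 0.234).

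The lists of guidance, TGF-beta and hypoxia genes each had more genes higher than lower at an unadjusted p under 0.05 (4.92% and 8.76% of all genes tested), with 0 called. Median transcript lengths were 5577 bases for the guidance and 5639 bases for the TGF-beta genes. With the length trend removed guidance gave 2 lower and 5 higher, and TGF-beta 0 lower and 5 higher (6.72% and 5.11% of all genes). Without a term for litter the guidance, TGF-beta and hypoxia lists gave 0 lower, and 2, 1 and 4 higher. Their medians in the second litter alone were -0.005, 0.09 and 0.17. Of 32 ephrin, semaphorin and Slit genes 0 were lower and 6 higher at an unadjusted p under 0.05 (median 0.09), among them *Slit2*, a guidance ligand, at 14.1, 15.5, 13.5 and 21 TPM in mutants and 11.7, 10.5, 15.9 and 16.1 TPM in controls (log2 fold change 0.34, limma adjusted p = 0.138), and *Nrp1*, a semaphorin and VEGF receptor (0.28, limma adjusted p = 0.193). Of 18 TGF-beta genes 0 were lower and 4 higher, *Tgfb2* with a log2 fold change of 0.48 and *Inhba* with 1.16. Of 22 genes of hypoxia and glycolysis 1 was lower and 5 higher, led by *Vegfa*, the main growth factor of blood vessels, at 105, 99.1, 79 and 97.9 TPM in mutants and 69.9, 61.7, 70 and 85.7 TPM in controls (0.45, limma adjusted p = 0.187). *Aldh1a2*, which makes retinoic acid, was at 23.6, 5.62, 4.57 and 17.3 TPM in mutants and 2.26, 1.54, 4.41 and 17.5 TPM in controls. Embryos 3, 6 and 8 stood far above the rest, mutants and a control alike (log2 fold change 1.72, SE 0.59, limma adjusted p = 0.26). The retinoic acid binding protein gene *Crabp1* had a log2 fold change of -0.57 and *Crabp2* -0.28 (limma adjusted p = 0.246 and 0.256). Of 32 collagen and matrix genes 0 were lower and 3 higher, *Postn* with 0.96 and *Eln*, the elastin gene, with 0.67 (limma adjusted p = 0.234 and 0.239). Of 23 BMP genes 0 were lower and 3 higher (median 0.15), of 19 YAP and TEAD genes 2 lower and 0 higher (median 0.03), and of 20 p53 targets 0 lower and 1 higher (median 0.02).

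Markers of other cells moved with genotype in part. The erythroid list gave 0 lower and 9 higher of 16 tested at an unadjusted p under 0.05, with 16 positive log2 fold changes (median 0.49) and 0 called. The shares over all genes tested were 8.76% lower and 4.92% higher. The summed level of its genes was 23747, 19588, 26797 and 15390 TPM in mutants, against 13321, 14222, 17726 and 15237 TPM in controls. The 3 first-litter mutants lay above every control, and the second-litter mutant, embryo 6, lay between its littermates. Accordingly the first litter alone gave 13 higher (median 0.73) and the second litter alone 0 higher and 1 lower (median -0.04). Without control embryo 1 or 2 the count was 3. *Slc4a1*, which encodes the anion exchanger band 3 of red cells, was at 57.5, 50.7, 68 and 42.9 TPM in mutants and 32, 31.4, 47.1 and 39.6 TPM in controls (log2 fold change 0.60, limma adjusted p = 0.245). In the mandible the list gave 0 higher and 0 lower, with a median of 0.02.

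Endothelial markers gave 0 lower and 5 higher of 18 (median 0.13), with *Pecam1* at 25.5, 24.7, 23 and 24.1 TPM in mutants and 19.6, 19, 21.4 and 21.2 TPM in controls, above every control in every mutant (log2 fold change 0.26, limma adjusted p = 0.186). At an unadjusted p under 0.05, the level of the counts in this paragraph, 8.76% of all genes tested were lower and 4.92% higher. The summed level of the endothelial list was 365 to 399 TPM in mutants and 336 to 378 TPM in controls. In the mandible the endothelial list gave 0 lower and 2 higher (3.35% and 3.85% of all genes tested there). The 17 neuronal genes gave 0 lower and 0 higher with a median of 0.24, but a median of 0.04 without mutant embryo 6. The 25 genes of neural crest mesenchyme gave 0 lower and 4 higher (median 0.13), led by *Osr2* and *Meox2* with log2 fold changes of 1.05 and 0.82 (limma adjusted p = 0.259 and 0.293). Without a term for litter this mesenchyme list gave 0 lower and 0 higher. Its median was 0.20 in the first litter alone and -0.04 in the second litter alone. The summed level of the list overlapped, at 2341 to 2830 TPM in mutants and 2248 to 2851 TPM in controls. The 22 genes of surface ectoderm gave 1 lower and 2 higher (median -0.05), and the 17 of the olfactory placode 0 lower and 3 higher (median 0.14). The part of cell composition in the gene values above was not tested.

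**Figure D5:**
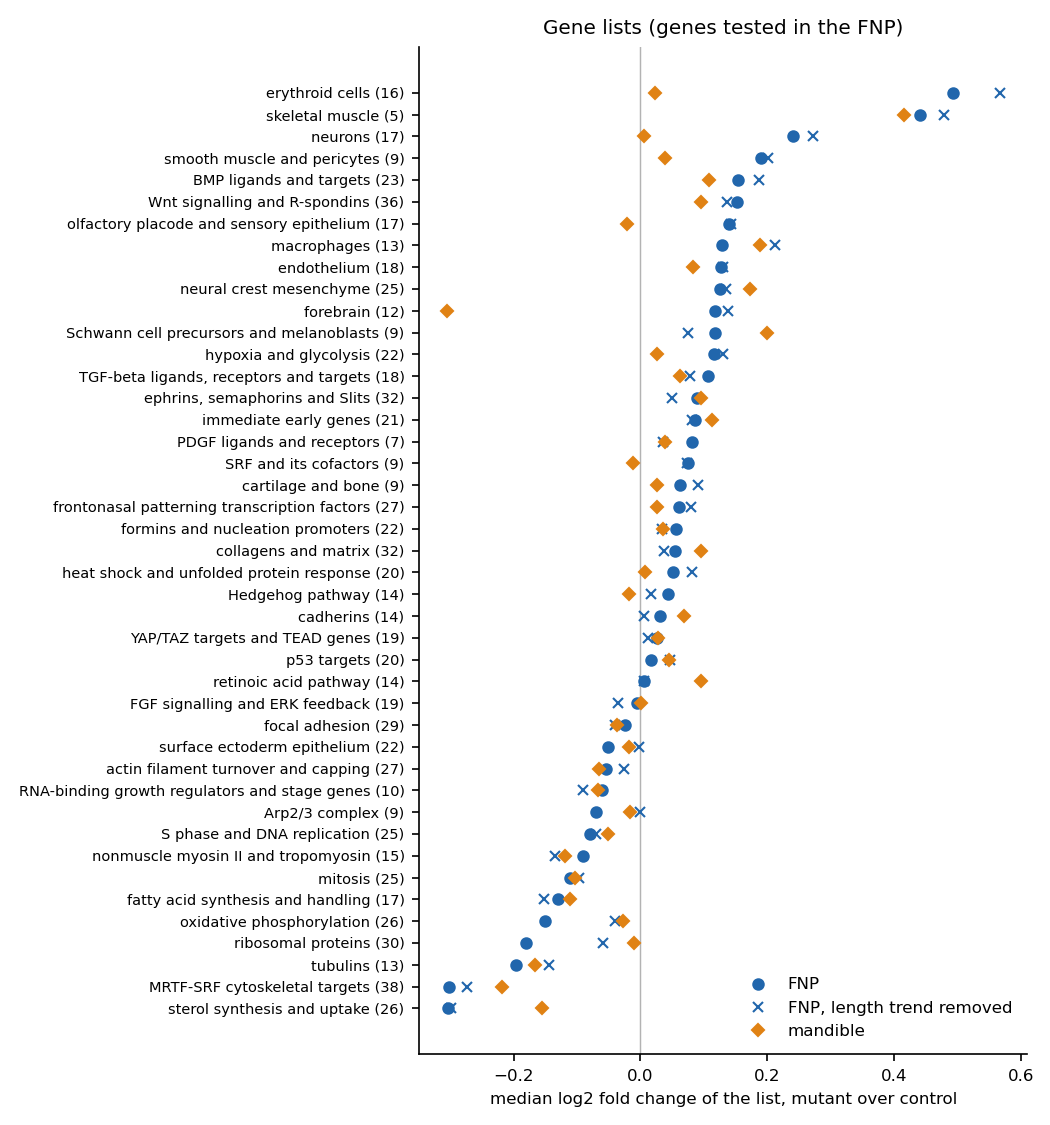
Median log2 fold change (mutant over control, x axis) of each gene list in the FNP (blue circles), in the FNP with the length trend removed (blue crosses) and in the mandible (orange diamonds), with the number of genes tested in the FNP in brackets. Sterol genes and cytoskeletal targets lie lowest in the FNP at -0.30, and erythroid genes highest at 0.49.

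Between the tissues, 0 of 14630 genes differed in the effect of genotype (limma interaction term, 0% called in either direction, smallest adjusted p = 0.999). At an unadjusted p under 0.05, 431 genes had a lower effect in the FNP (2.95%) and 207 a higher one (1.41%). With embryo as a block 0 were called, and 555 were lower (3.79%) and 353 higher (2.41%) at that level. The smallest unadjusted p was that of *Ikzf1*, a haematopoietic transcription factor gene, at 4.73, 5.18, 5.92 and 3.12 TPM in mutant FNPs and 2.34, 2.35, 1.45 and 1.61 TPM in control FNPs (log2 fold change 1.09, limma adjusted p = 0.0642), and -0.50 in the mandible (difference 1.80 in the fit over 16 libraries, unadjusted p = 0.000159 in limma). *Otulinl*, *Vgll2* and *Gm4335* came next, with differences of -1.35, -2.42 and -1.46 (FNP minus mandible). Of the 31-base words of *Gm4335*, 93.6% occur in other genes, so its values are uncertain. *Vgll2* was too low in the FNP to be tested there. Of the ribosomal protein genes 30 of 30 had a lower log2 fold change in the FNP than in the mandible, and 12 had an unadjusted p under 0.05 for the difference. The medians of all genes tested were -0.005 in the FNP and 0.006 in the mandible. Ribosomal genes are short and moved together with the trend along length in the FNP. Without a term for litter 0 of them were lower there at an unadjusted p under 0.05.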

How the data were processed

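Per the methods, the authors quantified each library with Salmon 1.5.0 against mm10 transcripts and used sleuth 0.30.0-4 to give a value per gene. The deposited gene values are a signal, since the authors scaled their estimated counts by library. 0% of the values above 0 lie within 1e-06 of a whole number, so no count model was used, although one had been foreseen for whole counts. The deposited TPM, also a signal here, were scaled too and sum to 920899 to 1069140 in a library. The table of TPM holds 35639 genes and that of gene values 15451, and the depth in reads is not kept. The tables of the authors' own comparisons, which hold fitted effects and p-values per gene, were not used.

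The test was limma 3.58.1 in R 4.3.3 on log2(value + 0.5), with a variance trend and terms for litter and genotype, over genes that reached 10 in 4 or more FNP libraries. Calls needed a Benjamini-Hochberg adjusted p no higher than 0.05. A fold change on this scale understates that of low genes. The difference between tissues was the interaction of tissue and genotype over 16 libraries. FNP and mandible libraries with the same number come from the same embryo, and their deviations from group means correlated at 0.0993 to 0.234. Mutant and control embryos share no number.

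Exact permutation tests were two-sided. Named genes were *Srf*, every called gene, the 12 next on each side with a mean of at least 5 TPM and no overlap between groups, up to 4 members of each list with the smallest p, the cell type markers, and the 4 genes with the smallest p for the difference between tissues. *Srebf2*, *Insig1*, *Mvd*, *Fdps*, *Pdlim7* and *Tpm2*, outside this rule, were named after their values were seen, and some genes that the rule names are not reported here. Members and the 43 lists, written from general knowledge, were chosen with earlier results of these data known. Gene models were those of GENCODE vM21, and promoter sequences those of RefSeq (GRCm38.p6). The fits were tested on simulated data. Other settings numbered 23 for the FNP, 1 of them added after seeing the data. Figures were drawn with matplotlib 3.10.9.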

Additional observations from a re-analysis of the deposited data

Results flagged for a closer look

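In 6 of 78 groups of 4 libraries examined (the mutants or the controls of each called gene and of the 12 next genes on each side), a library lay far from the other 3. Chance alone gives such a case in about 1 group of 20 where groups are not chosen by their values. These genes were chosen by a small p, the 12 next on each side also for no overlap, and they share the same libraries. That rate therefore need not hold here. *Ahcyl2* stood at 24.0 TPM in mutant embryo 6, against 20.2 to 20.6 TPM in the other mutants, and *Mecom* at 30.2 TPM in mutant embryo 5, against 26.1 to 26.5 TPM. *Nsdhl* stood at 27.4 TPM in mutant embryo 3, against 23.3 to 23.9 TPM in the other mutants, and *Csrp1* at 61.2 TPM in mutant embryo 6, against 69.7 to 70.4 TPM. Among controls, *Gm4294* stood at 9.18 TPM in embryo 1, against 3.97 to 4.63 TPM in the others, and *Mrpl47* at 32.5 TPM in embryo 8, against 37.4 to 38.4 TPM.

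*Gm11509*, a processed pseudogene on chromosome 11 (chr11:88335660-88335984, GRCm38), has TPM but no deposited gene value and so took no part in the comparisons. It was listed at 0 TPM in mutant embryos 3, 4, 5 and 6, against 1.99, 1.32, 1.56 and 4.29 TPM in control embryos 1, 2, 7 and 8. On log2(TPM + 0.1) its change was -4.34 (limma with Benjamini-Hochberg adjusted p = 0.0273 over the genes of that table), a size that depends on the added 0.1 and is no bound.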

How the results depend on the processing

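The number of genes called in the FNP was 29 on the deposited TPM, 63 with the spread taken from all 16 libraries and 68 with the same and embryo as a replicate block, 27 at an adjusted p of at most 0.10 and 4 in the second litter alone. Leaving out each library in turn gave 9 to 20. All other settings stayed within 1.5 times of 15, and every called gene kept its direction in each. *Actg1*, *Cnn2* and *Vcl* were called in all 23 settings, *Rspo1* in 12, *Fhl3* in 10 and *Gm8399* in 8 of 22. *Srf* stood at 31.6% of controls with *Wnt1-Cre* and 20.1% of controls without Cre, where the exact test cannot pass although *Srf* was called in limma against either, and at 21.9 to 28.3% with a library left out (exact p = 0.0571, the smallest that 3 against 4 allow). The difference between tissues gave 0 to 1 genes with an embryo left out, the 1 gene without control embryo 2, and the block changed no call. *Gm2000* rose on TPM, with robust variances and with the length trend removed, *Ahcyl2* and *Ikzf1* on TPM, *Rasa2* without mutant embryo 3, *Slc25a37* in the first litter alone and without mutant embryo 6, and *Gm17655* in the first litter alone, against controls without Cre and without control embryo 7. *Gm45837* rose against controls with *Wnt1-Cre* and without control embryo 2, and *Gm10108*, *Gm15446*, *Wdfy4* and *1810049J17Rik* in 1 setting each. Removing the length trend, chosen after seeing the data, gave 20 genes. *Gucy1a1* rose with the spread of all 16 libraries. The cause of these differences was not tested, and the lost read depth limits what low genes can show.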
